A study of Homo sapiens with 4 samples.

Results

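The MAGEA cancer-testis antigens were followed in A549 cells, a human lung adenocarcinoma line, through 8 genes: MAGEA1, MAGEA2, MAGEA3, MAGEA4, MAGEA6, MAGEA10, MAGEA12 and their neighbour CSAG1. These 8 of the 50868 genes in the count files were found by gene name. They had been selected on their counts in the comparison described here, so their differences between groups are given as a description and carry no test. RNA was sequenced in 4 libraries, 2 labelled control and 2 labelled USP12-overexpressed. Per the study's figure legends, the control cells were a vector control and the other cells overexpressed USP12, a deubiquitinase. The study asked how USP12 shapes the expression programme of tumour cells. The sources used here do not say whether replicates came from separate cultures, so the p-values given for other genes measure only the spread between these libraries. The totals ranged from 14280081 to 16305356 counts, and 15222 genes, among them 4 of the 8 members, passed the filter on low counts.

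MAGE-A proteins are normally made in germ cells and placenta and are silent in most other adult tissues. Their genes lie on the long arm of the X chromosome, are held silent largely by DNA methylation of their promoters, and are switched on again in many tumours, where peptides from the proteins can be presented to T cells. Several of the proteins bind RING E3 ubiquitin ligases, of which TRIM28 is the best known partner of MAGEA3 and MAGEA6. CSAG1 belongs to a small family of genes placed among the MAGEA genes and encodes a centrosomal protein. Neither DNA methylation nor protein was measured here.

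The makeup of the 8 members' expression set the groups apart. The control libraries held mainly MAGEA12 and CSAG1, and the USP12 libraries held almost only MAGEA3 and MAGEA6. MAGEA12 was at 0 counts in both USP12 libraries, CSAG1 was at 0 and 7 counts, and MAGEA3 and MAGEA6 were 5.67-fold and 6.68-fold higher in the USP12 libraries. The level summed over the 8 members overlapped between the groups as scaled counts, but not without CSAG1 or per exon length.

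The promoters are shown first, since the genes that differed in opposite directions lie close together and resemble each other. The windows below, from RefSeq on GRCh38.p14, run from 250 bases before to 50 bases after the RefSeq start of each gene, 5′ to 3′ on the strand of the gene, with each CG, the dinucleotide that is methylated in human DNA, in capitals. The MAGEA12 window lies at chrX:152733507-152733806 on the plus strand, the CSAG1 window at chrX:152733672-152733971 on the minus strand, and the MAGEA3 window at chrX:152698544-152698843 on the plus strand. The RefSeq starts of MAGEA3 and MAGEA6 lie 27 bases, and that of CSAG1 14 bases, from the GENCODE starts given further down, and the MAGEA12 starts are the same.
MAGEA12: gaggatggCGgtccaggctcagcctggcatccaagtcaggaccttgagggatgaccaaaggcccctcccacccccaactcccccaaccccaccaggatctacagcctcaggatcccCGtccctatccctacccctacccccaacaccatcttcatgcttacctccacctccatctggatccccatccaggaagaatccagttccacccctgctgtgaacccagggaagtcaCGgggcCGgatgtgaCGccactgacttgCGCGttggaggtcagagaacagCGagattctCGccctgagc
CSAG1: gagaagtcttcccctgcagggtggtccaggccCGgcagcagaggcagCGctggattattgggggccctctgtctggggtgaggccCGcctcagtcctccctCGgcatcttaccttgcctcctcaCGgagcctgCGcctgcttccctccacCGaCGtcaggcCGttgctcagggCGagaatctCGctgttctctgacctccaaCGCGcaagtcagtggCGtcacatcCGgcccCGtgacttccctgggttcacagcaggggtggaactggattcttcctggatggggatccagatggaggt
MAGEA3: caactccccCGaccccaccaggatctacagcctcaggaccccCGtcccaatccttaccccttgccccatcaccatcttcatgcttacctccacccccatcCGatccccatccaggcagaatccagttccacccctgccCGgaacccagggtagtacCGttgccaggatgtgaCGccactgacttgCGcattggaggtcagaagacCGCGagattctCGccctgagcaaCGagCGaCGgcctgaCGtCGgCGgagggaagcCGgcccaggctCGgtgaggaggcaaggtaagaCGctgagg
The MAGEA6 window, at chrX:152769640-152769939 on the minus strand, was identical to that of MAGEA3 in all 300 letters. The MAGEA12 and MAGEA3 windows were 89.4% identical over 227 aligned columns. The MAGEA12 and CSAG1 windows cover 135 bases in common, on opposite strands. The MAGEA12 window held 9 CG and the CSAG1 window 16, against 19 in the window shared by MAGEA3 and MAGEA6. Of all 35116 promoter windows, 58.4%, 47.5% and 42.9% held at least as many CG as these 3 windows, respectively.

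Of the 8 members, 6 had a promoter window in the table used, and MAGEA1 and MAGEA10 are named only. The longest run of letters present in the windows of MAGEA12, CSAG1, MAGEA3 and MAGEA6, on either strand, had 24 bases and is shown because genes that differed in both directions carry it.
Shared run: ggatgtgaCGccactgacttgCGc
Only 11 of the 35116 windows (0.0313%) held this run, and they belonged to 9 gene symbols, all of MAGEA or CSAG genes or of transcripts named after them, MAGEA2 included. Around the run the windows differed. The letters CCGGATG overlap the start of the run and contain GGAT, a form of the core bound by ETS factors. This GGAT opens the run itself, so the window of MAGEA3 and MAGEA6 holds it too, with other letters before it. CCGGATG as a whole was present on either strand in the windows of MAGEA12, CSAG1, MAGEA2 and MAGEA4. It was absent from the window of MAGEA3 and MAGEA6, and was found in 926 windows in all (2.64%). The letters TGACGTC, close to the site of the CREB and ATF family, were present in the windows of MAGEA3, MAGEA6 and CSAG1, and in 1210 windows in all (3.45%). Both short motifs were picked after the sequences had been seen, and a match is a description of the letters only.

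All 8 genes lie within Xq28 on GRCh38, and the 4 that carried most of the counts start within 35959 bases of MAGEA12. MAGEA12 (ENSG00000213401) spans chrX:152733757-152737669 on the plus strand. CSAG1 (ENSG00000198930) spans chrX:152727484-152733735 on the minus strand, and the starts of the pair are 22 bases apart, head to head. MAGEA3 (ENSG00000221867), at chrX:152698767-152702347 on the plus strand, starts 34990 bases to the left of MAGEA12, and MAGEA6 (ENSG00000197172), at chrX:152766136-152769716 on the minus strand, starts 35959 bases to its right. The pair that was high in the control libraries is thus flanked on both sides by the pair that was high in the USP12 libraries. MAGEA2 starts at 20.1 kb, MAGEA1 at 446 kb, MAGEA10 at -595 kb and MAGEA4 at -821 kb from the MAGEA12 start.

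The members of the MAGEA family have a single coding exon each in their main transcript. MAGEA2, MAGEA3, MAGEA6 and MAGEA12 each have 942 coding bases, and CSAG1 has 234 coding bases in 3 exons. The coding sequences of MAGEA3 and MAGEA6 were 98.1% identical, and those of MAGEA12 and MAGEA3 were 92.1% identical. The authors counted uniquely mapped fragments, so the share of a gene that is unique in the genome bears on its counts. Of the 100-base stretches in the exons, 95.7% in MAGEA12 and 99.5% in CSAG1 occurred once in the genome, against 62.0% in MAGEA3 and 61.8% in MAGEA6. No such stretch of MAGEA2 was unique, as its copy MAGEA2B shares its sequence, so the counts of MAGEA2 cannot be read as its level. The read length is not given in the sources used here.

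USP12 itself had 201 and 621 counts in the controls against 24235 and 32274 with USP12, a log2 fold change of 6.32 (SE 0.57, adjusted p = 0.0975, edgeR quasi-likelihood test). All fold changes compare USP12 with control libraries on the scale of TMM-scaled counts, and their SE is an approximation (the fold change over the root of its F statistic). Across the 15222 genes tested, 0 (0%) passed an adjusted p of 0.05 as lower and 0 (0%) as higher with edgeR's quasi-likelihood test, 1155 had an unadjusted p under 0.05, and the DESeq2 Wald test called 277 lower and 133 higher and the edgeR exact test 262 and 167. The criterion used for other genes below is therefore the looser one of an unadjusted p of at most 0.05 with a log2 fold change of at least 1 in size, which 671 genes (4.41%) met as lower and 445 (2.92%) as higher. The control libraries differed from each other more than the USP12 libraries did, and in the files control replicate 1 has a column name with a date-like prefix unlike that of the other 3. A batch and that library cannot be told apart.

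MAGEA12 had 387 and 472 counts in the controls against 0 and 0 with USP12. In CPM, the TMM-scaled count level, this was 29.3 and 26.2 against 0 and 0. The gene was thus counted in both control libraries and in neither USP12 library, and the groups did not overlap. Taking 3 counts per library as the most that a count of 0 allows, or 0.216 and 0.208 CPM in the USP12 libraries, its level was at least 131-fold lower with USP12. The floor covers counting error only. With each library left out in turn, this bound stayed between 123-fold and 137-fold. GENCODE 44 annotates a long noncoding RNA, also named CSAG4, over MAGEA12 on the same strand, and fragments of the pair could not be told apart by position there. The CSAG4 pseudogene of the files, which starts 6.11 kb downstream, had 7 and 8 counts in the controls and 0 in either USP12 library.

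CSAG1 had 576 and 448 counts in the controls against 0 and 7 with USP12, or 43.6 and 24.8 CPM against 0 and 0.485 CPM. Both USP12 libraries were far below both control libraries. The ratio of its summed level in the USP12 libraries to that in the control libraries was 0.00754 (95% exact interval 0.00303 to 0.0156, counting error only), and its log2 fold change was -7.08. Of the counts of CSAG1 and MAGEA12 together, CSAG1 held 59.8% (95% exact binomial interval 56.6 to 62.9) in control replicate 1 and 48.7% (45.4 to 52.0) in control replicate 2, so their balance differed between the controls by more than counting error.

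MAGEA3 had 51 and 132 counts in the controls against 425 and 477 with USP12, or 3.86 and 7.31 CPM against 30.6 and 33.0 CPM. Both USP12 libraries were above both control libraries, and the controls differed from each other more than the USP12 libraries did. The log2 fold change was 2.50 (SE 0.52), 2.12 without control replicate 1 and 3.05 without control replicate 2.

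MAGEA6 had 47 and 91 counts in the controls against 335 and 484 with USP12, or 3.56 and 5.04 CPM against 24.1 and 33.5 CPM. The groups again did not overlap, and the log2 fold change was 2.74 (SE 0.50), 2.51 without control replicate 1 and 3.03 without control replicate 2. Of the joint counts of MAGEA3 and MAGEA6, MAGEA3 held 52.0% (95% exact binomial interval 41.7 to 62.2) and 59.2% (52.4 to 65.7) in the controls, and 55.9% (52.3 to 59.5) and 49.6% (46.4 to 52.8) with USP12. Only uniquely mapped fragments were counted, so fragments from stretches that the genes share may be missing from both. A fragment assigned to the wrong gene of the pair leaves their sum unchanged, so the sum is the firmer measure. It may still be too low beside MAGEA12 and CSAG1, in which 95.7% and 99.5% of stretches were unique.

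**Figure D1:**
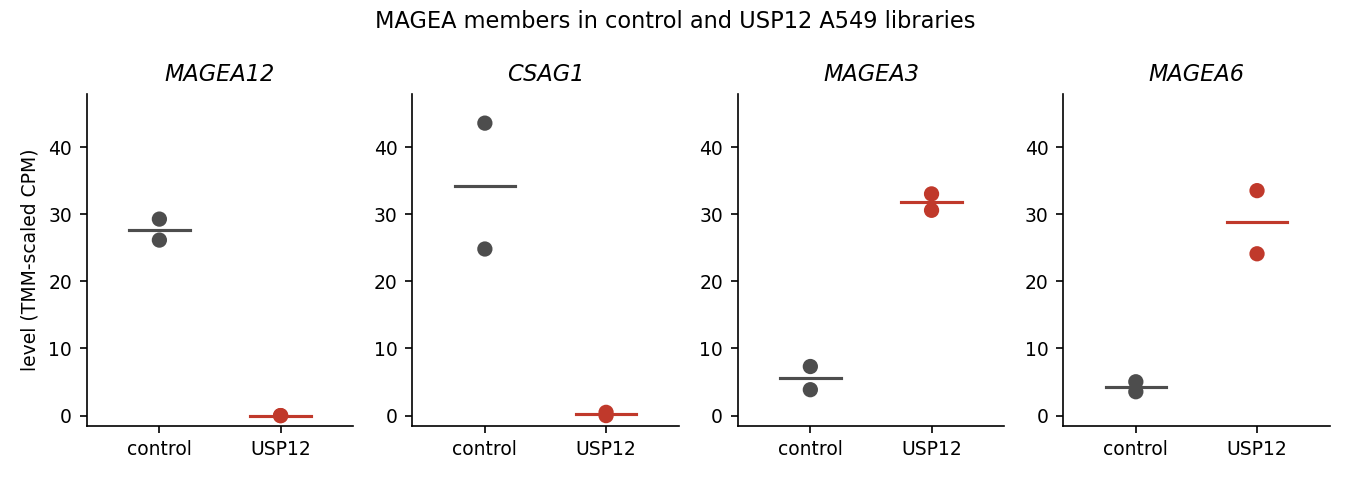
Level of the 4 members that passed the filter on low counts, in TMM-scaled CPM (vertical axis, linear), in the control libraries (grey) and the USP12 libraries (red). Each point is a library and each line the mean of 2 libraries. MAGEA12 and CSAG1 lay between 24.8 and 43.6 CPM in the controls and at or below 0.485 CPM with USP12, and MAGEA3 and MAGEA6 lay at or below 7.31 CPM in the controls and at or above 24.1 CPM with USP12.

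The other 4 members were at the limit of detection. MAGEA1 had 8 and 6 counts in the controls against 0 and 2 with USP12, a ratio of 0.158 (95% exact interval 0.0174 to 0.686, counting error only). The direction in MAGEA1 was that of MAGEA12, at levels too low to pass the filter. MAGEA2 had 0 and 7 counts in the controls and 0 in either USP12 library, MAGEA10 had 7 and 0 against 0 and 0, and MAGEA4 was at 0 in all 4 libraries. Of the 8 members, 3 (MAGEA12, CSAG1 and MAGEA1) were lower in both USP12 libraries than in both controls and 2 (MAGEA3 and MAGEA6) were higher. Among all genes tested, 17.0% were lower and 19.5% higher by this measure, and nothing is read from the comparison with the members, which were selected on these counts.

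Summed over the 8 members, the level was 81.4 and 64.1 CPM in the controls against 54.7 and 67.2 CPM with USP12. The lowest value was in a USP12 library, but the other USP12 library lay between the controls. Without CSAG1, which belongs to another gene family, the sum was higher in both USP12 libraries than in both controls. Counts were also divided by exon length and rescaled within each library, as further down. On that scale the sum of the 8 members was lower in both USP12 libraries than in both controls. The difference in amount thus depends on the genes summed and on the scale. MAGEA12 and CSAG1 together made up 89.5% and 79.6% of the members' counts in the controls, but 0% and 0.722% with USP12. MAGEA3 and MAGEA6 together made up 9.11% and 19.3% in the controls, but 100% and 99.1% with USP12. Their counts may be too low in every library, as fragments from stretches they share may not be counted.

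**Figure D2:**
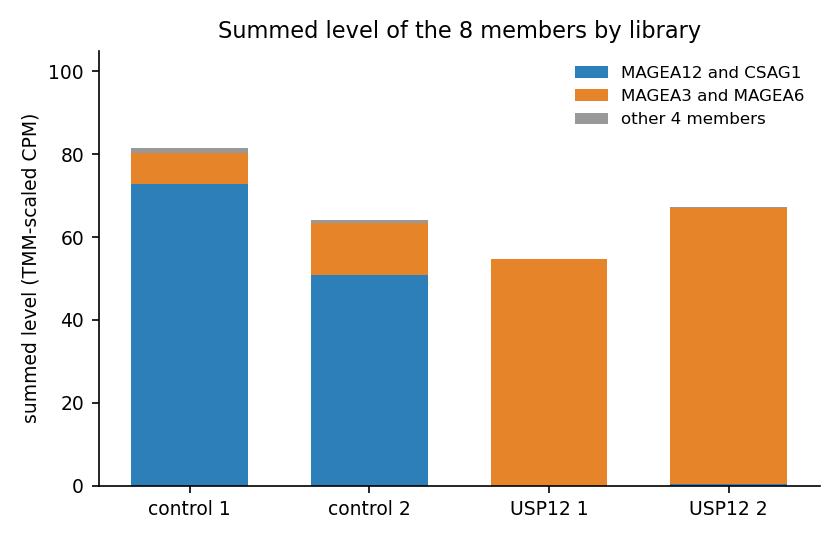
Summed level of the 8 members in each library, in TMM-scaled CPM, stacked by the pair MAGEA12 and CSAG1 (blue), the pair MAGEA3 and MAGEA6 (orange) and the other 4 members (grey). The heights of the bars lie between 54.7 and 81.4 CPM, and the blue part, 72.9 and 51.0 CPM in the controls, is at 0 and 0.485 CPM in the USP12 libraries.

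To set the genes against each other, counts were divided by exon length and then rescaled within each library. The values are relative levels on that scale and not CPM per kb. On this scale CSAG1 led in the control libraries (81.2 and 62.7), followed by MAGEA12 (30.3 and 36.7), MAGEA3 (4.43 and 11.4), MAGEA6 (3.95 and 7.59) and MAGEA1 (0.720 and 0.536). The values of MAGEA3 and MAGEA6 overlapped, and those of the genes ranked above and below them did not. In the USP12 libraries MAGEA3 (31.9 and 38.3) and MAGEA6 (24.3 and 37.6) led and overlapped each other. CSAG1 (0 and 0.913) came next by mean, from 7 counts in USP12 replicate 2 only, and overlapped MAGEA1 (0 and 0.166). The mean CPM of MAGEA12 and CSAG1 in the control libraries exceeded that of 61.5% and 66.9% of the genes tested. Those of MAGEA3 and MAGEA6 exceeded 27.7% and 24% of them in the controls and 67.0% and 64.4% with USP12. Each pair thus stood, in the group where it was high, at a middle rank among the genes of these cells. For MAGEA3 and MAGEA6 the levels and ranks may be too low, as part of their sequence is not unique.

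The neighbourhood on the X chromosome was described next. Of 85 other genes in the files that start within 1 Mb of a member, 28 were tested, and their median log2 fold change was -0.08, against -0.06 over all genes tested. By the criterion 2 of the 28 (7.14%, against 2.92% of all genes tested) were higher, and 0 were lower in edgeR's quasi-likelihood test, none of them at an unadjusted p under 0.05. The DESeq2 Wald test and the edgeR exact test each called 2 lower, SLC6A8 and SSR4, whose log2 fold changes were -1.71 and -1.13.

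The 2 higher neighbours were GABRE and GABRA3, which encode the epsilon and alpha subunits of receptors for the neurotransmitter GABA. GABRE had 14 and 72 counts in the controls against 244 and 265 with USP12, a log2 fold change of 2.81 (SE 0.72, adjusted p = 0.332, edgeR quasi-likelihood test). GABRA3 had 14 and 39 counts in the controls against 190 and 262 with USP12, a log2 fold change of 3.29 (SE 0.60, adjusted p = 0.210, same test). Without control replicate 1 their log2 fold changes were 2.17 and 2.88. Both met the criterion as higher. They did not pass an adjusted p of 0.05 in the quasi-likelihood test and passed it in the DESeq2 Wald test and the edgeR exact test. Both lie to the left of MAGEA3, with starts at -759 kb and -282 kb from that of MAGEA12. GABRQ, which encodes the theta subunit and lies between GABRA3 and MAGEA3, had 4 and 6 counts in the controls and 0 in either USP12 library.

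The nearest tested genes to the right of MAGEA6 did not meet the criterion. CETN2, which encodes a centrin of the centrosome, had a log2 fold change of 0.26 (SE 0.36), and NSDHL, an enzyme of cholesterol synthesis, -0.05 (SE 0.42). ZNF185, a LIM domain protein, had 0.31 (SE 0.45). Between MAGEA3 and MAGEA6 no gene other than MAGEA12 and CSAG1 was tested. CSAG2 had 7 and 0 counts in the control libraries, CSAG3 had 5 and 5, and all were at 0 with USP12, while MAGEA2B had 0 and 17 counts in the control libraries against 0 and 1.

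**Figure D3:**
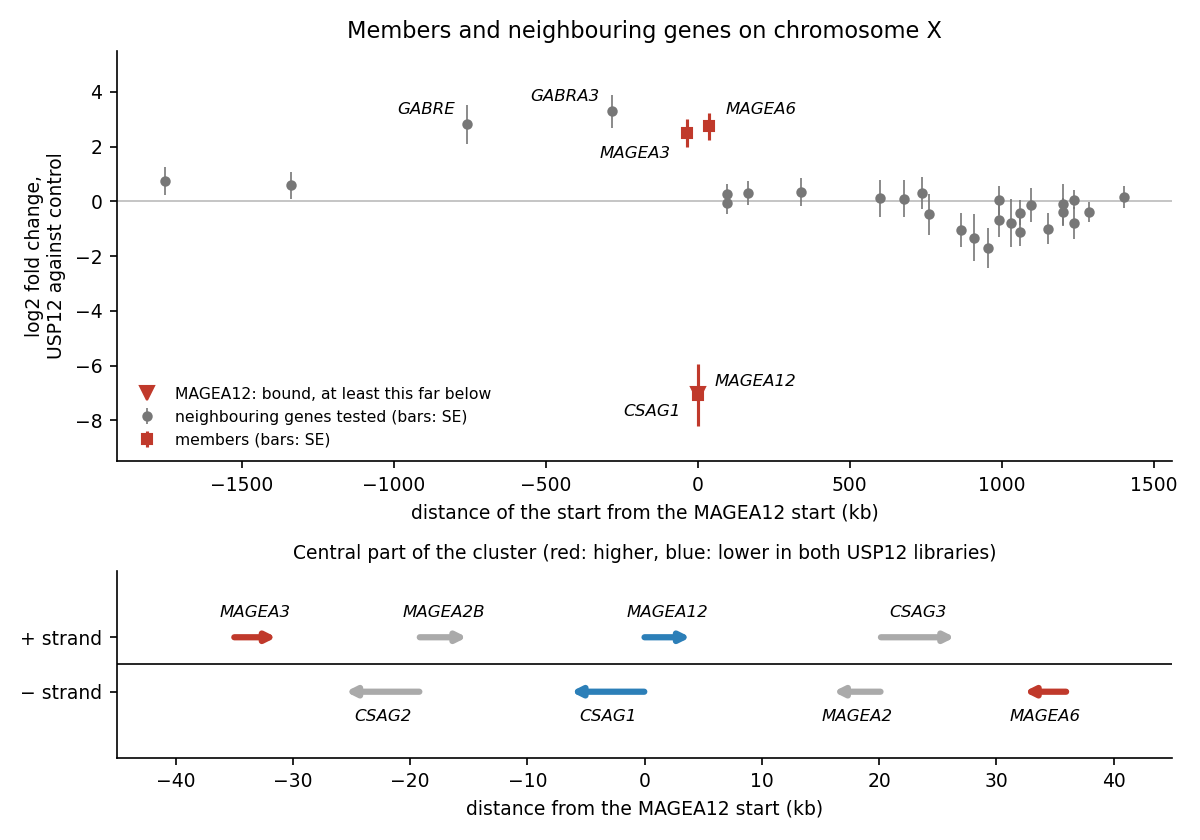
Above, log2 fold change of USP12 against control libraries (vertical axis) by the distance of each gene's start from that of MAGEA12 (horizontal axis, kb) for 3 tested members (red squares), the bound for MAGEA12 (red triangle) and 28 tested neighbours (grey), with SE as bars. Below, the genes of the central part as arrows to scale, with MAGEA3 and MAGEA6 (higher, red) on either side of MAGEA12 and CSAG1 (lower, blue). GABRE at 2.81 and GABRA3 at 3.29 stand with MAGEA3 and MAGEA6 at 2.50 and 2.74, and the genes to the right of the cluster lie between -1.71 and 0.33.

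Other relatives of the members, in the cluster and outside it, mostly had few counts or none. Of 11 other MAGEA and CSAG genes and 13 MAGEB and MAGEC genes in the files, which are restricted to germ cells and tumours like the members, 0 passed the filter. The 11 other MAGEA and CSAG genes summed to 1.44 and 1.99 CPM in the controls and to 0 and 0.139 CPM in the USP12 libraries. The 13 MAGEB and MAGEC genes summed to 0.530 and 0.388 CPM against 0.216 and 0.693 CPM. The low counts of the MAGEA and CSAG genes outside the main 4 thus stood mostly in the control libraries, and those of MAGEB and MAGEC in both groups.

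Type II MAGE genes are expressed in most tissues and are not cancer-testis genes. Of 9 tested, 1 was lower by the criterion (11.1%, against 4.41% of all genes tested) and 0 higher in edgeR's quasi-likelihood test, in the DESeq2 Wald test and in the edgeR exact test, with 0 higher also at an unadjusted p under 0.05. The lower gene was MAGEH1, with 433 and 266 counts in the controls against 115 and 136 with USP12, a log2 fold change of -1.42 (SE 0.55, adjusted p = 0.602, edgeR quasi-likelihood test). It was -0.73 without control replicate 1.

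Nearly all other cancer-testis genes of the X chromosome had few counts or none. Of 73, 64 had at most 3 counts in every library, and 4 were tested. Only uniquely mapped fragments were counted, and the share of unique sequence in these genes was not measured. Low counts can thus not be read as silence for genes with near-identical copies. By the criterion 2 of the 4 (50%, against 4.41% of all genes tested) were lower, XAGE1A and XAGE1B, near-identical copies of an antigen gene expressed in lung adenocarcinoma, between which fragments may have been split. XAGE1A had 1341 and 986 counts in the controls against 406 and 360 with USP12, a log2 fold change of -1.53 (SE 0.45, adjusted p = 0.424, edgeR quasi-likelihood test). XAGE1B had 387 and 329 against 91 and 125, or -1.64 (SE 0.49, adjusted p = 0.426, same edgeR test). These genes had lower counts with USP12 without going to 0, unlike MAGEA12.

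Of the cancer-testis and germline genes on autosomes, 17 of 51 were tested, with a median log2 fold change of 0.15. Only SYCP2, which encodes a protein of the meiotic synaptonemal complex, was lower by the criterion, with 57 and 45 counts in the control libraries against 12 and 9 and a log2 fold change of -2.18 (SE 0.72, adjusted p = 0.497, edgeR quasi-likelihood test). Its share of the list, 5.88%, is near the 4.41% of all genes tested. Without either USP12 replicate, 0 genes of the MAGE and cancer-testis lists met the criterion as lower in that fit. With all libraries, over these lists without the members, 4 of 30 tested genes (13.3%, against 4.41% of all genes tested) were lower by the criterion in edgeR's quasi-likelihood test. These 4 include XAGE1A and XAGE1B, near-identical copies that may not be separate signals. In that test 0 (against 2.92%) were higher, with 0 higher also at an unadjusted p under 0.05. Likewise 0 were higher at that p in the DESeq2 Wald test and in the edgeR exact test.

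Genes of the DNA methylation machinery, which keeps MAGEA promoters silent in normal cells, were read for their own RNA. Of 22 tested, 1 was lower by the criterion in edgeR's quasi-likelihood test (4.55%, against 4.41% of all genes tested) and 0 higher (against 2.92%). The lower share is thus near that of all genes. The edgeR exact test gave the same counts, with 0 higher also at an unadjusted p under 0.05. The DESeq2 Wald test called 2 lower, MBD2 and IDH1. The median log2 fold change of the list was 0.02. MBD2, a reader that binds methylated DNA and recruits repressors, had 3741 and 2680 counts in the controls against 1285 and 1176 with USP12, a log2 fold change of -1.31 (SE 0.43, adjusted p = 0.491, edgeR quasi-likelihood test). It was -0.77 without control replicate 1.

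The DNA methyltransferases did not meet the criterion. DNMT1, which copies methylation at replication, had 822 and 2078 counts in the controls against 1508 and 1935 with USP12, a log2 fold change of 0.45 (SE 0.43). For DNMT3A and DNMT3B, which place new methylation, the log2 fold changes were 0.84 (SE 0.51) and -0.53 (SE 0.55). UHRF1, which brings DNMT1 to newly made DNA, had 0.64 (SE 0.47). For the TET enzymes, which remove methylation by oxidation, they were -0.10 (SE 0.93) for TET1, -0.31 (SE 0.92) for TET2 and 0.01 (SE 0.81) for TET3. In TET1 the controls had 10 and 92 counts and in TET2 27 and 299, so the controls were further apart than the group means. CTCFL, a germ cell factor reported to activate MAGEA genes, was at 0 in all 4 libraries.

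Of 31 repressive histone modifiers tested, 0 met the criterion in either direction in edgeR's quasi-likelihood test, the DESeq2 Wald test or the edgeR exact test, and 0 had an unadjusted p under 0.05. The largest log2 fold changes were 0.89 (SE 0.56) for CBX1, a heterochromatin protein, and -0.80 (SE 0.68) for SMCHD1, a silencer of the inactive X chromosome. Among genes reported to activate MAGEA genes or to bind MAGE-A proteins, 1 of 23 tested was lower by the criterion and 1 higher (4.35% each, against 4.41% and 2.92% of all genes tested).

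In that list the E3 ligase TRIM31 had 542 and 320 counts in the controls against 24 and 30 with USP12, a log2 fold change of -3.94 (SE 0.63, adjusted p = 0.182, edgeR quasi-likelihood test). It passed an adjusted p of 0.05 in the DESeq2 Wald test and in the edgeR exact test. ETS2, a transcription factor of the ETS family, had 449 and 797 counts against 1230 and 1275, or 1.18 (SE 0.37, adjusted p = 0.458, same edgeR test). TRIM28, with 5818 and 4767 counts against 4965 and 4436, had a log2 fold change of -0.08 (SE 0.38). Without either USP12 replicate, 0 genes of the regulator lists met the criterion as higher in the quasi-likelihood test.

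The 5 tested genes whose pattern over the 4 libraries was closest to that of MAGEA3, by Euclidean distance of centred log2 CPM, were DUBR (0.17), RP11-422P24.11 (0.17), FAT3 (0.21), AC002310.12 (0.23) and RP11-137H2.4 (0.29). None of them lies on the X chromosome. MAGEA6 was at a distance of 0.42, CSAG1 at 9.58 and MAGEA12 at 10.3. The measure rests on 4 libraries, and many genes can share such a pattern. FAT3, a large cadherin, had 10 and 22 counts in the controls against 84 and 93 with USP12, with a log2 fold change of 2.64.

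Markers of cell types were read beside these results. Of 11 germ cell markers, 9 had at most 3 counts in every library and 7, among them DAZL, PRM1 and PRM2, were at 0 in all. The 1 marker tested did not meet the criterion but was higher in both USP12 libraries, as were 19.5% of all genes tested. Its log2 fold change was 1.49, with 2.02 without control replicate 1 and 1.085 without control replicate 2. Their summed level was 1.21 and 0.443 CPM in the controls against 2.95 and 1.11 CPM with USP12. The keratins of simple epithelium were abundant, with 80283 and 60214 counts of KRT8 in the controls and 38164 and 36312 with USP12. Of 7 tested epithelial markers 1 was lower by the criterion (14.3%, against 4.41% of all genes tested). This gene, KRT19, had a log2 fold change of -2.14 (SE 0.66, adjusted p = 0.438, edgeR quasi-likelihood test) and -0.87 without control replicate 1. It passed an adjusted p of 0.05 in the DESeq2 Wald test. The 10 epithelial markers summed to 12898 and 7475 CPM against 7317 and 6796 CPM. SFTPB and SFTPC, surfactant genes of the alveolus, and NKX2-1, a lung lineage factor, had at most 5 counts in every library. NAPSA, a protease of alveolar cells, had 26 and 7 counts in the controls against 14 and 15 with USP12.

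Of 11 markers of immune, endothelial and fibroblast cells, 6 were tested and 3 were lower by the criterion (50%, against 4.41% of all genes tested), while the DESeq2 Wald test called 2 lower, without LYZ. CDH5, the cadherin of endothelium, had 136 and 96 counts in the controls against 2 and 5 with USP12, and PECAM1, another endothelial adhesion protein, had 68 and 56 against 4 and 14. LYZ, lysozyme, had 11 and 27 against 1 and 3. Of these, CDH5 passed an adjusted p of 0.05 in the Wald test and in the edgeR exact test. Of the fibroblast markers, COL1A1 and PDGFRB stood the other way without meeting the criterion, and the others are not described. COL1A1, a collagen, had 172 and 47 counts in the controls against 262 and 211 with USP12. PDGFRB, a growth factor receptor that did not pass the filter, had 0 and 0 against 6 and 11. The 11 markers, some of them not named here, summed to 110 and 59.8 CPM in the controls against 84.1 and 65.2 CPM with USP12. CD3E, a marker of T cells, was at 0 in all libraries. VWF, an endothelial marker, had 0 and 3 counts in the controls and 0 in either USP12 library. CDH5 and PECAM1 were lower with USP12, as were MAGEA12 and CSAG1, and their part in the result was not tested. In these bulk samples, fewer cells that express a gene and less of its RNA per cell cannot be told apart.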

How the data were processed

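Messenger RNA of A549 cells was sequenced in 4 libraries, 2 per group. The authors made stranded libraries, used Seqtk to trim adaptors and to drop ribosomal reads, mapped reads to GRCh38 with HISAT2 2.0.4, and deposited raw counts of uniquely mapped fragments per gene from StringTie 1.3.0. The annotation release and the strand setting of the counting are not given in the sources used here, so overlapping and antisense genes are uncertain. In GENCODE 44, MAGEA12 and MAGEA10 each overlap another annotated transcript on the same strand, and MAGEA4 overlaps MAGEA4-AS1 on the opposite strand. Groups and replicate numbers came from the labels.

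Counts were filtered with filterByExpr, scaled by TMM and tested with the quasi-likelihood test of edgeR 4.0.16 in R 4.3.3, with Benjamini-Hochberg adjustment over 15222 genes, after a check on simulated data. The design was without a block, as the study's methods describe no pairing. The prior degrees of freedom were 4.15. The smallest p of an exact permutation test of 2 libraries against 2 is 0.333, so none is given. The members and gene lists were chosen with earlier results of these data known. Genes named outside the members were USP12, 8 methylation genes, list genes and X neighbours that met the criterion (otherwise the 2 with the largest change), and the 5 genes most like MAGEA3. CETN2, NSDHL, ZNF185, GABRQ, SLC6A8, SSR4, TRIM28, IDH1, KRT8, VWF, COL1A1, PDGFRB, NAPSA, DAZL, PRM1, PRM2, CD3E, SFTPB, SFTPC, NKX2-1 and low-count relatives of the members were added after their values were seen. Positions and exon lengths came from GENCODE release 44, which held 99.2% of the genes tested, and promoter windows from RefSeq. Python 3.11.15, pandas 2.3.3 and Biopython 1.88 were used. The alternatives were DESeq2 1.42.0 with its Wald test and its size factors, the edgeR exact test, no filter on low counts, the replicate block, and leaving out each library. The results of 2 genes of the lists are not reported here, and the counts of their lists are without them.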

Additional observations from a re-analysis of the deposited data

How the results depend on the processing

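The directions of the 4 tested members held under DESeq2's size factors and Wald test, the edgeR exact test, no filter on low counts, the replicate block and each library left out. Leaving out libraries gave log2 fold changes of -7.41 to -6.12 for CSAG1, 2.12 to 3.05 for MAGEA3 and 2.48 to 3.03 for MAGEA6. Without USP12 replicate 2, CSAG1 has 0 counts with USP12, and its value is a bound against 3 counts. Without the members that overlap another gene on the same strand or have a near-identical copy, which leaves CSAG1, MAGEA1 and MAGEA4, the summed level was 44.2 and 25.2 CPM in the controls against 0 and 0.623 CPM with USP12, since MAGEA3, MAGEA6 and MAGEA12 are then left out.

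Calls depended on the test. At an adjusted p under 0.05, lower and higher genes numbered 277 and 133 (DESeq2 Wald test), 262 and 167 (exact test), 361 and 167 (no filter), and 251 and 153 (replicate block), against 0 and 0. The fits without a filter and with the block had infinite prior degrees of freedom. The correlation of same-numbered libraries was 0.152, over 2 pairs, and the labels give no pairing. With a library left out, its group has 1 library, which is assumed to vary like the other group, so these calls rest on the spread of a single group. They numbered 21 to 2542 lower and 15 to 2475 higher, the most without control replicate 2. The log2 fold change of USP12 passed this threshold at 6.31 (Wald test), 6.32 (exact test), 6.33 (no filter), 6.43 (replicate block) and 5.85 to 7.04 (a library left out).

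By the criterion, all genes numbered 1173 lower and 688 higher without a filter, and 274 to 2049 and 171 to 2371 with a library left out. The cancer-testis and MAGE lists gave 7 lower and 1 higher without a filter, and 0 to 5 lower and 0 to 4 higher with a library left out, with 0 lower without either USP12 replicate. The regulator lists gave 1 to 6 lower and 0 to 18 higher with a library left out, 18 without control replicate 2. The neighbours gave 2 lower in the Wald test, 2 in the exact test, 3 without a filter, 1 with the replicate block and 0 to 8 with a library left out, and 2 to 5 higher. The cause of these changes was not tested. With 2 libraries per group, levels of at most 3 counts per library (0.166 to 0.227 CPM) could not be told from 0.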
